A study of Mus musculus with 6 samples.

Results

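Collagen prolyl 4-hydroxylases, lysyl hydroxylases and lysyl oxidases were followed in cells sorted as stroma from mouse melanoma. The family was taken by gene name and holds 10 of the 53801 genes in the count table, namely P4ha1, P4ha2 and P4ha3, Plod1, Plod2 and Plod3, and Lox, Loxl1, Loxl2 and Loxl3. RNA was sequenced from PDPN+PDGFRα+ cells sorted from MO5 tumors, which grow from subcutaneously implanted B16 melanoma cells that carry ovalbumin. The groups were ADAM12-DTR mice (DTR, 3 libraries) and their non-transgenic littermates (Ctrl, 3 libraries), all on a C57Bl/6 background, adult, and given diphtheria toxin (DT). In DTR mice a BAC transgene drives the DT receptor, together with the tetracycline transactivator tTA, from the Adam12 promoter, so DT is meant to remove cells in which this promoter is on, and the sort takes what the labels call stromal cells. The comparison of DTR with Ctrl asks how transcripts of the collagen-modifying enzymes stood in that sorted fraction.

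Fibrillar collagens are modified inside the cell before they are secreted. Prolyl 4-hydroxylases hydroxylate prolines, which lets the triple helix stay folded at body temperature, and lysyl hydroxylases hydroxylate lysines that later carry sugars or become cross-links. Outside the cell, copper-dependent lysyl oxidases turn lysines and hydroxylysines of collagen and elastin into aldehydes that cross-link neighbouring chains, and in tumors this activity is known for stiffening the matrix and for responding to hypoxia.

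Library totals ran from 22339635 to 34271929 counts, and levels are given as CPM, read counts scaled to a common library total with TMM factors, where 3 counts equal 0.0875 to 0.134 CPM and cover counting error only. Each library held melanocyte transcripts beside the sorted fibroblast markers: Dct ran from 5745 to 7572 CPM, Pdgfra from 42.6 to 132 CPM and Pdpn from 46.0 to 99.0 CPM. The labelled cell type is therefore not the only source of RNA, and what share of each enzyme's counts came from melanoma cells cannot be told apart from the stromal share. Of 6 endothelial markers, Pecam1 (CD31, which the sort gated out) was at 2.61 to 8.02 CPM, Kdr at 1.58 to 11.98 CPM and Cdh5 at 0 to 1.37 CPM, while Tie1, Emcn and Cldn5 were at 0 to 0.105 CPM, and Ptprc, the leukocyte marker CD45, was at 16.3 to 49.6 CPM. Summed markers ran from 105 to 170 CPM for macrophages (8 genes), 7.24 to 16.0 CPM for endothelial cells (6 genes), 9.52 to 38.1 CPM for mural cells (5 genes) and 4.08 to 34.4 CPM for T cells (5 genes). Adam12, whose promoter drives the transgene, was at 215.7, 180.6 and 175.0 CPM in Ctrl and 164.7, 151.0 and 111.6 CPM in DTR, with no overlap and an adjusted p of 0.602 (edgeR quasi-likelihood test). The library Ctrl replicate 1 stood apart for the enzymes, so the fold changes without it are given as well.

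No enzyme of the family passed the test between DTR and Ctrl. All 10 members passed the filter on low counts, and edgeR's quasi-likelihood fit (Benjamini-Hochberg adjusted p under 0.05) called 0 of 10, against 0% of the 15133 genes tested, so this fit made no call anywhere. At an unadjusted p under 0.05 it picked 1 member, Plod1, beside 7.92% of all tested genes, and DESeq2 called 0 members beside 0.151% of the genes for which it gave an adjusted p. Groups overlapped for all 10 members, whereas 14.5% of tested genes showed no overlap, 6.32% higher and 8.18% lower in DTR. The fitted log2 fold change (DTR over Ctrl) was below 0 for 6 members and above 0 for 4, beside 49.6% of tested genes above 0, with a median of -0.09 beside -0.0029 for all tested genes. In sorted bulk RNA, fewer cells of a type and less RNA per cell cannot be told apart.

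**Figure D1:**
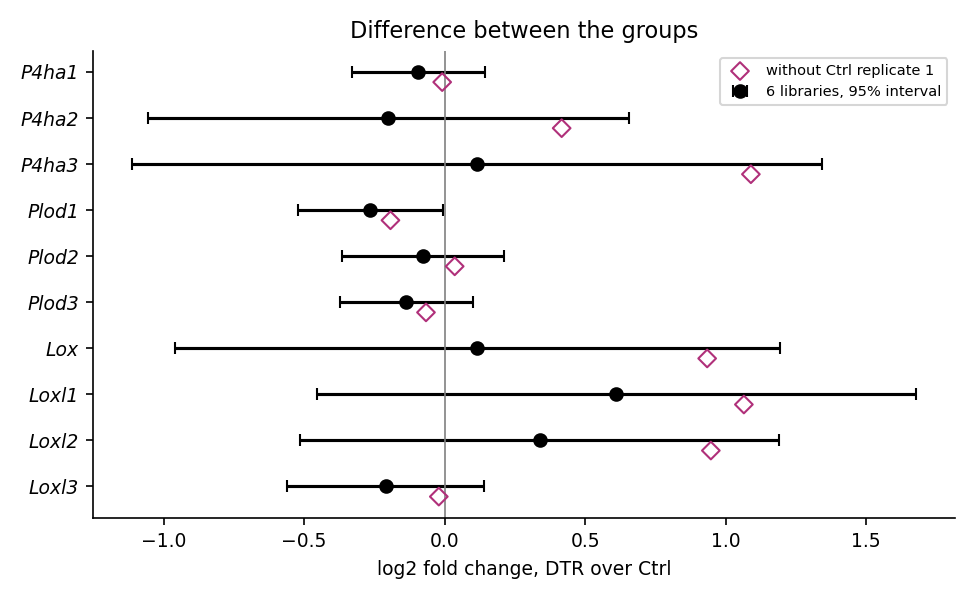
Fitted log2 fold change (x axis, DTR over Ctrl) of the 10 enzymes (y axis), with bars for the 95% interval from edgeR and open diamonds for the fit without Ctrl replicate 1. The intervals of P4ha1 and the 3 Plod genes are short, those of P4ha2, P4ha3, Lox, Loxl1 and Loxl2 are wide, and Plod1 alone has an interval that ends below 0, at -0.0050.

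The prolyl 4-hydroxylase α subunits carry the catalytic site and the peptide-binding domain of the enzyme. Their promoter sequences are shown because hypoxia response elements have the core ACGTG or GCGTG and because the members differ in these letters. The sequences are the 250 bases before the RefSeq start on GRCm38.p6, all on the plus strand, 5′ to 3′, with matches to either core on either strand in capitals (a match on the other strand reads CACGT or CACGC). They lie at chr10:59323046-59323295 for P4ha1, chr11:54100674-54100923 for P4ha2 and chr7:100285270-100285519 for P4ha3. The P4ha1 and P4ha3 windows end where the GENCODE gene begins, but the P4ha2 window lies inside the gene's GENCODE span, past its first base at 54100095, so it precedes the RefSeq start only.
P4ha1: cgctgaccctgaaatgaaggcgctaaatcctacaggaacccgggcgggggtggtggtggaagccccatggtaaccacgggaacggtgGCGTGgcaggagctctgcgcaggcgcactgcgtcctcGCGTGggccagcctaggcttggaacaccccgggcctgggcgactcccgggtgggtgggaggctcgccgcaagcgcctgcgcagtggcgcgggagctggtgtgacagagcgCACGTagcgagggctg
P4ha2: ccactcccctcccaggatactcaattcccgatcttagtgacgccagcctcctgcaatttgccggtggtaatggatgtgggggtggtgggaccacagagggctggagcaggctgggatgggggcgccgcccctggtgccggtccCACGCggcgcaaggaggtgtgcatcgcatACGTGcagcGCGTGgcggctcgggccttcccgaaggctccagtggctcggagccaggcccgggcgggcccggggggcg
P4ha3: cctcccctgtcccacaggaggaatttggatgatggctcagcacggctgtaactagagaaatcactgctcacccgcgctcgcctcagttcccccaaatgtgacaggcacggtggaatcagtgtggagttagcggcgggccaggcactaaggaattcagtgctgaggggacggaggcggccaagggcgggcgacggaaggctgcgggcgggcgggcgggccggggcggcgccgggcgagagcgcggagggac
P4ha1 had 3 matches, at 163, 126 and 16 bases before the start, and P4ha2 had 3, at 107, 78 and 69 bases. P4ha3 had 0. Of 32851 mouse promoter windows of this length, 38.6% held at least 1 match and 6.58% held 3 or more. The core ACGTG alone was in 16.6% of windows and GCGTG in 28.2%, and ACGTG overlaps the E-box CACGTG, which other factors bind. A match describes the letters in this window and is no sign that a factor was bound. The windows of Plod1 and Plod3 held 1 and 4 matches, and Plod2, Lox, Loxl1, Loxl2 and Loxl3 had no entry in the RefSeq promoter table.

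P4ha1 (ENSMUSG00000019916, chromosome 10 from 59323296 to 59373304), the main α subunit in most cells, was at 174.0, 153.6 and 141.0 CPM in Ctrl replicates 1, 2 and 3 and at 142.7, 157.3 and 139.3 CPM in DTR replicates 1, 2 and 3. The groups lay on top of each other, and DTR replicate 2 was higher than Ctrl replicates 2 and 3. Means were 156.2 ± 16.6 CPM in Ctrl and 146.4 ± 9.56 CPM in DTR (SD, n = 3), a log2 fold change of -0.09 (SE 0.102, 95% interval -0.33 to 0.14, edgeR adjusted p = 0.822). It was -0.0085 without Ctrl replicate 1 and -0.16 without Ctrl replicate 3.

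P4ha2 (ENSMUSG00000018906, chromosome 11 from 54100095 to 54131665), the α subunit of the second isoenzyme, was at 51.3, 21.0 and 18.5 CPM in Ctrl and 32.4, 22.5 and 24.1 CPM in DTR. Ctrl replicate 1 was above every other library and the other 2 Ctrl libraries were below every DTR library. The log2 fold change was -0.20 (SE 0.371, interval -1.06 to 0.66, edgeR adjusted p = 0.902). Without Ctrl replicate 1 it turned to 0.42, so 1 library decides its sign.

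P4ha3 (ENSMUSG00000051048, chromosome 7 from 100285520 to 100319699), the least abundant α subunit, was at 15.2, 4.77 and 3.05 CPM in Ctrl and 8.66, 6.79 and 9.52 CPM in DTR. Its pattern was that of P4ha2 drawn out, with a 4.98-fold spread inside Ctrl and a 1.40-fold spread inside DTR. Its log2 fold change was 0.12 (SE 0.532, interval -1.11 to 1.34, edgeR adjusted p = 0.959), and it was 1.09 without Ctrl replicate 1, -0.12 without Ctrl replicate 2 and -0.27 without Ctrl replicate 3.

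**Figure D2:**
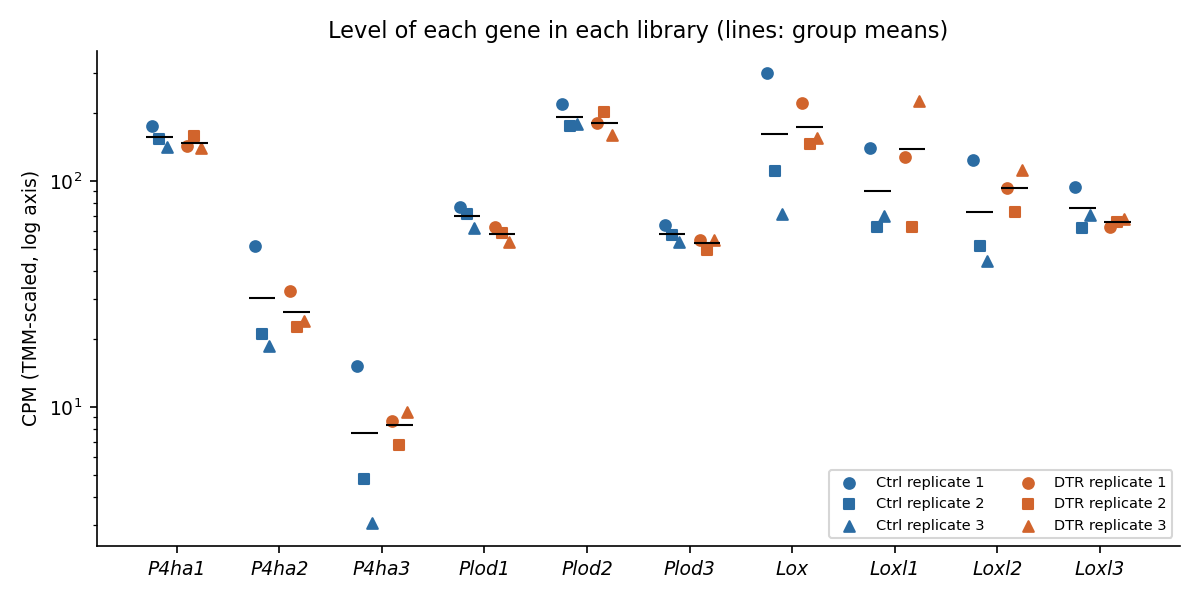
CPM (y axis, log scale) of each enzyme (x axis) in every library, with 1 point per library, blue for Ctrl and orange for DTR, and a line at the group mean. Points of P4ha1, Plod1, Plod2 and Plod3 lie close together in both groups, while P4ha2, P4ha3, Lox and Loxl2 have 1 high Ctrl library, replicate 1, and Loxl1 has 1 high DTR library, replicate 3.

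Among lysyl hydroxylases, Plod1 (ENSMUSG00000019055, chromosome 4 from 147909753 to 147936767, minus strand) encodes LH1, which acts on lysines of the triple helix. It was at 76.7, 71.6 and 61.7 CPM in Ctrl and 62.3, 58.9 and 53.7 CPM in DTR. Every DTR library was below Ctrl replicates 1 and 2, and the groups overlapped through Ctrl replicate 3, which was 61.7 CPM beside 62.3 CPM in DTR replicate 1. The means were 70.0 ± 7.67 and 58.3 ± 4.31 CPM (SD, n = 3), and the log2 fold change was -0.26 (SE 0.112, interval -0.52 to -0.0050, edgeR adjusted p = 0.623, unadjusted p = 0.0467). DESeq2 gave Plod1 an unadjusted p of 0.0705 and an adjusted p of 0.844, and a two-sided exact permutation test gave p = 0.2, where 0.1 is the smallest value possible with 3 against 3. Scaled by library size alone, Plod1 had no overlap, beside 6.35% of tested genes lower in this way. Whichever library was left out, the log2 fold change of Plod1 lay from -0.35 to -0.19.

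Plod2 (ENSMUSG00000032374, chromosome 9 from 92542223 to 92608428) encodes LH2, the form that acts on the telopeptides at the ends of collagen chains and thereby sets the type of cross-link. It was at 219.2, 174.1 and 178.1 CPM in Ctrl and 180.8, 201.6 and 159.2 CPM in DTR, with the DTR libraries on both sides of Ctrl replicates 2 and 3. The log2 fold change was -0.08 (SE 0.125, interval -0.37 to 0.21, edgeR adjusted p = 0.882), and it was 0.04 without Ctrl replicate 1. Plod3 (ENSMUSG00000004846, chromosome 5 from 136987019 to 136996648) encodes LH3, which also adds sugars to hydroxylysine. It was at 63.6, 57.4 and 53.4 CPM in Ctrl and 54.7, 49.4 and 54.6 CPM in DTR, which overlapped. Its log2 fold change was -0.14 (SE 0.103, interval -0.37 to 0.10, edgeR adjusted p = 0.736), and it was -0.07 without Ctrl replicate 1.

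Of the lysyl oxidases, Lox (ENSMUSG00000024529, chromosome 18 from 52516067 to 52529867, minus strand), the founding member, which is secreted as a proenzyme, varied most between Ctrl libraries. It was at 299.0, 110.6 and 71.3 CPM in Ctrl and 220.1, 146.0 and 155.0 CPM in DTR. The 3 DTR libraries lay between the highest Ctrl library and the other 2, and the spread inside Ctrl was 4.19-fold, wider than in 94.1% of tested genes. Group means were 160.3 ± 121.7 CPM in Ctrl and 173.7 ± 40.4 CPM in DTR (SD, n = 3). The log2 fold change was 0.12 (SE 0.466, interval -0.96 to 1.19, edgeR adjusted p = 0.953). It was 0.93 without Ctrl replicate 1 and -0.24 without Ctrl replicate 3.

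Loxl1 (ENSMUSG00000032334, chromosome 9 from 58287738 to 58313186, minus strand), which is known for elastic fibre assembly, had the highest fitted fold change of the 10. It was at 139.3, 62.3 and 69.7 CPM in Ctrl and 127.5, 62.5 and 224.7 CPM in DTR. DTR replicate 3 was the highest of all 6 libraries, DTR replicate 1 was below Ctrl replicate 1, and DTR replicate 2 matched the lowest Ctrl library closely. The log2 fold change was 0.61 (SE 0.461, interval -0.45 to 1.68, edgeR adjusted p = 0.735). It was 0.07 without DTR replicate 3 and 1.07 without Ctrl replicate 1.

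Loxl2 (ENSMUSG00000034205, chromosome 14 from 69609068 to 69695834), whose product carries scavenger receptor domains and acts on type IV collagen, was at 123.4, 51.7 and 44.2 CPM in Ctrl and 92.7, 72.5 and 112.1 CPM in DTR. Again Ctrl replicate 1 was highest, and the other 2 Ctrl libraries were below every DTR library. The log2 fold change was 0.34 (SE 0.369, interval -0.51 to 1.19, edgeR adjusted p = 0.821), and it was 0.95 without Ctrl replicate 1, 0.16 without Ctrl replicate 2, 0.08 without Ctrl replicate 3 and 0.18 without DTR replicate 3. Loxl2 is the least certain count in the family, because 45.0% of its 50-base words also occur in other genes, mainly the predicted gene Gm21451, which was itself at 0 to 0.245 CPM, and how reads with several alignments were counted is not given in the sources used here. Loxl3 (ENSMUSG00000000693, chromosome 6 from 83034173 to 83052562), a relative of Loxl2 known from mouse mutants with cleft palate and spine defects, was at 94.2, 62.0 and 70.6 CPM in Ctrl and 62.6, 65.8 and 67.9 CPM in DTR. The 3 DTR libraries sat within a 1.08-fold range inside the Ctrl range, with a log2 fold change of -0.21 (SE 0.152, interval -0.56 to 0.14, edgeR adjusted p = 0.725). It was -0.02 without Ctrl replicate 1 and -0.32 without Ctrl replicate 2.

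The enzymes split by how much they varied between libraries, a split made after the values were seen. Within Ctrl, P4ha1, Plod1, Plod2, Plod3 and Loxl3 stayed within 1.52-fold, while Loxl1, P4ha2, Loxl2, Lox and P4ha3 spanned 2.24-fold to 4.98-fold, beside a median range of 0.38 (log2) over all tested genes. Ctrl replicate 1 was the highest Ctrl library for 10 of 10 members, against 34.7% of tested genes. It was the highest of all 6 for 9 members, all but Loxl1, against 16% of tested genes. Leaving it out, 4 members (P4ha2, P4ha3, Lox and Loxl2) were higher in DTR with no overlap, beside 12.5% of tested genes, and 0 were called by edgeR. Ctrl replicate 1 was singled out as the highest Ctrl library for all 10, so leaving it out lowers each member's Ctrl level by construction. The 12.5% also covers genes for which Ctrl replicate 1 was not highest, so the 4 members are no measure of a rise in the family. Lower in DTR with no overlap were Loxl3 without Ctrl replicate 2 (12.5% of tested genes), Plod1 and Plod3 without Ctrl replicate 3 (13.1%) and Plod1 without DTR replicate 1 (16.2%), and without DTR replicate 2 or 3 there were 0 members in either direction.

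Cell type markers differed between libraries as well. Summed over 8 fibroblast markers, Ctrl libraries held 11127, 4306 and 4280 CPM and DTR libraries 8934, 4568 and 11692 CPM, and the 3 libraries high in this sum were those highest for Loxl1. Col1a1 and Col3a1 made up 90.6% to 94.7% of the sum, and the other 6 markers held 590.5, 234.2 and 404.3 CPM in Ctrl and 527.0, 328.4 and 1080 CPM in DTR, highest in the same 3 libraries. Summed over 8 melanocyte markers, all of them detected, the libraries ran from 15235 to 18964 CPM, with the 3 lowest sums in the same 3 libraries. Mural cell markers summed to 38.1, 15.8 and 25.5 CPM in Ctrl and 12.3, 17.3 and 9.52 CPM in DTR. Their median log2 fold change was -0.88 over the 4 tested, with 3 below and 1 above 0. Of these 4, 1 (Cspg4, log2 fold change -1.02, edgeR adjusted p = 0.602) was lower in DTR with no overlap. Fibroblast markers had a median of 0.38, with 7 above and 1 below 0. The 5 T cell markers had a median of -0.73, with 4 below and 1 above 0, and the 3 endothelial markers tested 0.61, with 2 above and 1 below. The 8 macrophage markers had a median of -0.08, with 5 below and 3 above 0, and the 8 melanocyte markers a median of -0.10, with 6 below and 2 above 0. In each of the macrophage and melanocyte lists 1 marker was lower with no overlap (Mrc1 and Sox10, named after their values were seen, as was Cspg4), beside the 8.18% of all tested genes. A list of 15 hypoxia-inducible genes, including Car9, was also highest in Ctrl replicate 1, at 2081 CPM against 1252 to 1704 CPM in the other libraries. With the fibroblast markers as a covariate, an alternative chosen after seeing the data, log2 fold changes were -0.11 for P4ha1, -0.31 for P4ha2, 0.02 for P4ha3, -0.28 for Plod1, -0.09 for Plod2, -0.19 for Plod3, 0.04 for Lox, 0.12 for Loxl1, 0.17 for Loxl2 and -0.27 for Loxl3, and edgeR called 0 members. The part of these markers in the differences between single libraries was not tested.

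**Figure D3:**
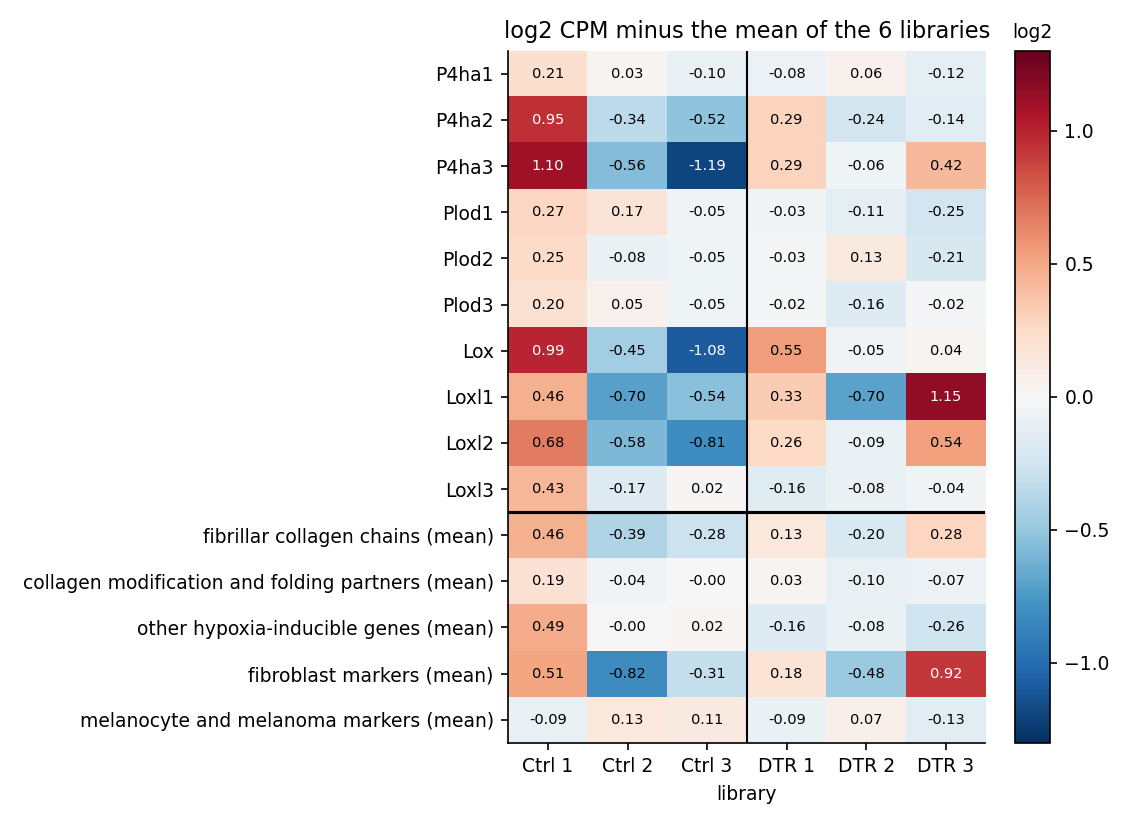
Deviation of each library (x axis) from the mean of all 6, in log2 CPM, for the 10 enzymes and, below the line, for the mean of 5 lists (y axis); red is above and blue below the mean. Ctrl replicate 1 is red for every enzyme, and Lox reaches 0.99 there and -1.08 in Ctrl replicate 3.

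Within a subfamily, shares of the summed level per kilobase do not depend on how libraries are scaled. P4ha1 made up 76.4% to 89.7% of prolyl 4-hydroxylase α subunit level in the 6 libraries, with its lowest share in Ctrl replicate 1, where P4ha2 and P4ha3 took 14.9% and 8.77%. Plod2 was 58.1% to 65.6% of lysyl hydroxylase level. Plod1 was 17.2%, 19.0% and 16.9% of it in Ctrl and 16.8%, 15.3% and 16.0% in DTR, so its share was lower in every DTR library, the only one of the 10 shares with no overlap. The means were 17.7% ± 1.18 and 16.0% ± 0.761 (SD, n = 3), a difference of -1.68 percentage points with a two-sided exact permutation p of 0.1, the smallest that 3 against 3 can give, unadjusted over the 10 shares compared. Without Ctrl replicate 2 the difference was -1.005 percentage points (exact permutation p = 0.2), and without DTR replicate 2 it was -1.298 (p = 0.3). The gap to the nearest Ctrl library was small, 16.9% against 16.8%. Lysyl oxidase make-up differed most between libraries, with Lox at 23.8% to 42.2% and Loxl1 at 24.6% to 50.1%. Loxl3 was 20.1% ± 5.99 in Ctrl and 13.7% ± 4.19 in DTR (SD, n = 3), which overlapped (difference -6.39 percentage points, exact permutation p = 0.2). That difference ran from -9.53 without Ctrl replicate 1 to -3.56 without Ctrl replicate 3.

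**Figure D4:**
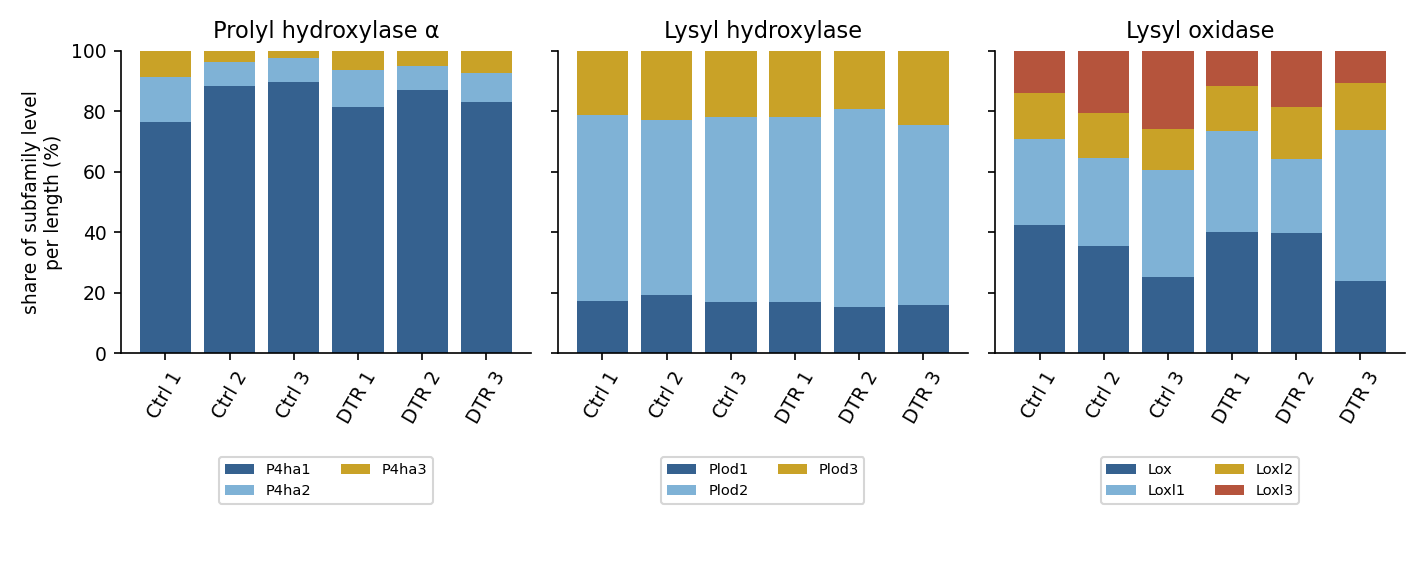
Share of each gene in the summed level per kilobase of its subfamily (y axis, percent, bars from 0 to 100) in every library (x axis), 1 panel per subfamily. P4ha1 and Plod2 take the largest shares in all 6 libraries, and the lysyl oxidase panel changes most, with Loxl1 at 50.1% in DTR replicate 3.

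Per kilobase of exon, 4 enzymes shared the highest level over all 6 libraries. P4ha1 was at 36.8 ± 3.23, Lox at 35.0 ± 17.05, Loxl1 at 34.7 ± 19.4 and Plod2 at 34.4 ± 3.97 CPM per kilobase (SD over the 6 libraries of both groups), and their ranges overlapped. Below Plod2 came a step of 2.25-fold to Loxl3, at 15.3 ± 2.62 CPM per kilobase, with Plod2 above Loxl3 in 6 of 6 libraries. Loxl2 (15.3 ± 5.95), Plod3 (12.3 ± 1.05), Plod1 (9.48 ± 1.26), P4ha2 (4.53 ± 1.96) and P4ha3 (2.55 ± 1.36 CPM per kilobase) followed, each with a range that overlapped its neighbour's. Compared library by library, Plod3 was above Plod1, Plod1 above P4ha2 and P4ha2 above P4ha3 in 6 of 6. The doubt about the Loxl2 count given above carries over to its level here, to the lysyl oxidase shares and to their ratio to collagen.

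The subfamilies were also set against collagen, in 3 ratios with unadjusted p-values. Per 1000 units of summed Col1a1, Col1a2 and Col3a1 level per kilobase, lysyl oxidases were at 99.1, 115.1 and 111.3 in Ctrl and 99.2, 130.4 and 95.2 in DTR, a range that the groups shared (log2 difference -0.01, exact permutation p = 1). Prolyl 4-hydroxylases were at 37.1, 74.7 and 71.4 in Ctrl and 36.6, 74.3 and 28.5 in DTR. Lysyl hydroxylases were at 44.2, 98.3 and 100.8 in Ctrl and 47.1, 96.3 and 34.7 in DTR. Both hydroxylase ratios were low in Ctrl replicate 1, DTR replicate 1 and DTR replicate 3, the libraries in which Col1a1 and Col3a1, part of the ratio's denominator, were highest. Their log2 differences between groups were -0.45 and -0.49, with exact permutation p = 0.4 and 0.5. Leaving out 1 library moved them from -0.85 and -0.91 (without DTR replicate 2) to -0.16 and -0.17 (without DTR replicate 3).

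**Figure D5:**
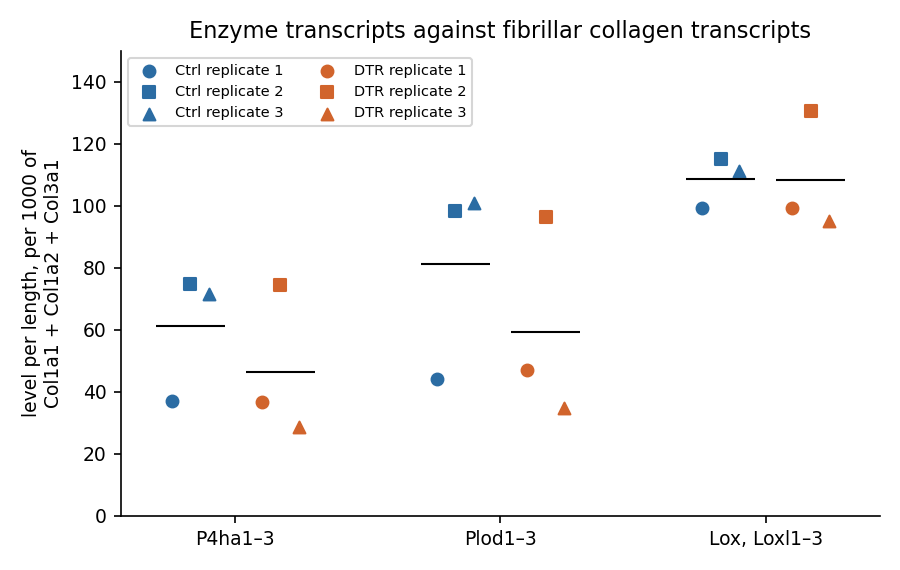
Summed level per kilobase of each subfamily per 1000 units of Col1a1, Col1a2 and Col3a1 level (y axis) for each subfamily (x axis), with 1 point per library, blue for Ctrl and orange for DTR, and a line at the group mean. Lysyl oxidases lie between 95.2 and 130.4 in all 6 libraries, while prolyl 4-hydroxylases run from 28.5 to 74.7 and lysyl hydroxylases from 34.7 to 100.8.

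Genes that work with the enzymes were examined as lists, with 0 calls by edgeR in each. Of 16 collagen modification and folding partners, 14 were tested, their median log2 fold change was -0.05, and 3 were lower at an unadjusted p under 0.05, namely P3h3, Colgalt1 and Fkbp10, beside 4.11% of tested genes in that direction. Fkbp10, a chaperone that assists telopeptide lysyl hydroxylation, was lowest at -0.32 (SE 0.133, edgeR adjusted p = 0.622), and P3h4, which binds LH1, highest at 0.22 (SE 0.421). P4hb, the β subunit that every prolyl 4-hydroxylase tetramer needs, was at 1011.6, 864.2 and 921.0 CPM in Ctrl and 895.2, 722.7 and 722.1 CPM in DTR (log2 fold change -0.26, edgeR adjusted p = 0.630; named after its values were seen).

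Of 8 proteases and enhancers that process procollagen and pro-lysyl oxidase, 0 had an unadjusted p under 0.05. The list ran from Tll2, a tolloid-like protease (-0.42, SE 0.480), to the enhancer Pcolce2 (1.46, SE 0.639, edgeR adjusted p = 0.630), with a median of 0.37, which was 0.04 without DTR replicate 3. Pcolce2 was at 9.26, 6.23 and 6.57 CPM in Ctrl and 15.8, 4.76 and 40.5 CPM in DTR, so DTR replicate 3 was highest there too. Of 8 genes for the paralogue Loxl4, substrates and scaffolds, the median was 0.61, or 0.25 without DTR replicate 3 and 1.11 without Ctrl replicate 1, and Eln, the elastin gene, was the one with an unadjusted p under 0.05, beside 3.81% of tested genes higher. Eln was at 30.5, 27.0 and 14.7 CPM in Ctrl and 59.9, 19.3 and 77.7 CPM in DTR, which overlapped through DTR replicate 2 (log2 fold change 1.12, SE 0.474, edgeR adjusted p = 0.622), and Fmod, which encodes a collagen-binding proteoglycan, was lowest (-0.24, SE 0.957).

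Of 11 fibrillar collagen chains, 0 had an unadjusted p under 0.05, with a median of 0.16 and extremes at Col2a1 (-0.72, SE 0.502) and Col11a2 (0.69, SE 0.355). That median was 0.56 without Ctrl replicate 1 and from -0.08 to -0.05 without Ctrl replicate 2, Ctrl replicate 3 or DTR replicate 3. Of the 15 other hypoxia-inducible genes, 6 were lower at an unadjusted p under 0.05 (edgeR), beside 4.11% of tested genes lower at that threshold. In 5 the groups did not overlap, beside 8.18% of tested genes lower without overlap. The median of the list was -0.34, which was -0.21 without Ctrl replicate 1. Car9, the carbonic anhydrase of hypoxic cells, was lowest at -1.23 (SE 0.214, edgeR adjusted p = 0.602), and Adm highest at 0.03 (SE 0.392). P4ha1, P4ha2, Plod2, Lox and Loxl2 are known hypoxia targets too, and their log2 fold changes were -0.09, -0.20, -0.08, 0.12 and 0.34. All their 95% intervals spanned 0, and those of P4ha2, Lox and Loxl2 were wide. P4ha2, Plod2 and Lox changed sign when 1 library was left out, so whether these genes differ from the hypoxia list was not tested.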

How the data were processed

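RNA-seq of PDPN+PDGFRα+ cells was analysed in 6 libraries, 3 Ctrl and 3 DTR, grouped by the genotype in the labels. The sort left out CD45+ and CD31+ cells. The labels do not say whether each library is 1 animal, so p-values measure the spread between these libraries. Per the labels and the study's methods, the authors trimmed reads with cutadapt 3.4, aligned them to GRCm38 with STAR 2.7.3a, counted them per gene by strand with featureCounts 2.0.1, and deposited raw counts. The table's 6 columns of rounded scaled values and the columns of the authors' own comparison (fold changes, p-values, dispersions and Cook's distances) were not used.

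Counts were kept by edgeR's filterByExpr (minimum count 10, total 15), scaled by TMM, and compared by the two-sided quasi-likelihood test (glmQLFit, glmQLFTest) with Benjamini-Hochberg adjustment over 15133 genes. Common dispersion was 0.0662. Single ratios and shares were compared by exact permutation of log2 values or shares (pseudocount 0.5 CPM for genes). Levels per kilobase used union exon length from GENCODE M21, which also gave positions. Promoters came from RefSeq. All members, Adam12, Pdgfra, Pdpn and the lowest and highest gene of each list are named by rule. Members and lists were chosen with earlier results of these data known. Other scalings, filters, DESeq2, a replicate block, an offset on genomic span and left-out libraries were tried, and the steps were tested on simulated data. Fits were run with edgeR 4.0.16 and DESeq2 1.42.0 in R 4.3.3 (limma 3.58.1 loaded), and figures with matplotlib 3.10.9 and pandas 2.3.3 in Python 3.11.15.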

Additional observations from a re-analysis of the deposited data

How the results depend on the processing

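No setting called a member, and over all alternatives the adjusted p of Plod1 ran from 0.468 to 0.844. DESeq2 called 17 genes higher and 14 lower over the whole table, of which 1, Car9, is in the hypoxia list. With library size alone 1 member, Plod1, had groups without overlap, lower in DTR. The labels do not say whether the replicate numbers pair the libraries. Correlations of same-numbered deviations were 0.114, 0.132 and -0.0420, beside -0.215 to 0.102 for differently numbered ones, which cannot settle it. With the number as a block the log2 fold changes were -0.26 for Plod1 (edgeR adjusted p = 0.575), 0.42 for P4ha3, 0.36 for Lox, 0.51 for Loxl1 and 0.47 for Loxl2, with 0 members called and no call changed. With the fibroblast markers as a covariate, chosen after seeing the data, list medians were 0.27 (paralogue), 0.12 (processing), -0.09 (fibrillar collagens, from 0.16), -0.08 (partners) and -0.36 (hypoxia). Col1a1 and Col3a1 made up 90.6% to 94.7% of this covariate and are also fibrillar collagens, so the change in that list's median was partly fixed in advance.

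Leaving out 1 library at a time, the median over the members ran from -0.22 to 0.23, that of the lysyl oxidase paralogue list from 0.25 to 1.11, that of the processing list from 0.036 to 0.50, that of the fibrillar collagens from -0.08 to 0.56 and that of the hypoxia list from -0.38 to -0.21. Genes called lower ran from 0 to 1, members without overlap from 0 to 4 higher and from 0 to 2 lower, and the ratios to collagen from -0.16 to 0.071 (lysyl oxidases), -0.85 to -0.16 (prolyl 4-hydroxylases) and -0.91 to -0.17 (lysyl hydroxylases). Loxl2 ran from 0.08 to 0.95 and Loxl1 from 0.07 to 1.07. Log2 fold changes that changed sign ran from -0.46 to 0.42 (P4ha2), -0.27 to 1.09 (P4ha3), -0.16 to 0.036 (Plod2) and -0.24 to 0.93 (Lox). Shares that changed sign ran, in percentage points, from -5.29 to 1.36 (P4ha1), -1.46 to 2.09 (P4ha2), -1.40 to 1.21 (Plod3), -4.47 to 5.44 (Lox) and -1.99 to 10.8 (Loxl1). The causes were not tested. With 3 libraries a group, true differences of Lox and P4ha3 anywhere inside their intervals remain possible, and no detection limit was computed.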
